A study of Mus musculus with 2 samples.

Results

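The 10 genes described here are immediate early genes, chosen by name with earlier results of these data known: Fos, Fosb, Jun, Junb, Egr1, Egr2, Atf3, Ier2, Dusp1 and Nr4a1. Each had 1 probe on the array, found by its gene name on both arrays, and 9 of the 10 passed the filter on dim probes that left 20495 genes of the 30011 gene names on the array. RNA was measured in ureters taken at E14.5 from mouse embryos of the NMRI strain on 2 Agilent arrays of dual colour, each with Rbpj-cKO RNA in one channel and control RNA in the other. The Rbpj-cKO embryos were Tbx18(cre/+);Rbpj(fl/fl), in which Cre made from the Tbx18 locus removes Rbpj, the DNA-binding partner of the Notch receptors, from cells that have expressed Tbx18, a gene of the ureteric mesenchyme. The control embryos were Rbpj(fl/?), a label that leaves their second Rbpj allele unnamed and lists no Cre, so that loss of Rbpj, the Cre and the altered Tbx18 allele cannot be told apart. Replicate 1 compared male embryos with Rbpj-cKO in AlexaFluor647 (red), and replicate 2 compared female embryos with Rbpj-cKO in AlexaFluor555 (green), so sex and dye cannot be told apart either. The labels do not give the number of embryos behind a channel, nor whether the 2 pairs came from separate litters. In whole ureters, fewer cells of a type and less RNA per cell cannot be told apart.

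Immediate early genes are transcribed within minutes of a stimulus from transcription factors that are already present in the cell, without new protein synthesis, and their RNAs are short-lived. Fos, Fosb, Jun and Junb encode the bZIP proteins that pair as AP-1, Egr1 and Egr2 are zinc finger factors, Atf3 is a stress-induced bZIP factor, and Nr4a1 is an orphan nuclear receptor. Ier2 encodes a small nuclear protein, and Dusp1 a phosphatase that switches MAP kinases off again. Growth factors, depolarisation, mechanical strain and the handling of tissue are all known stimuli. The ureters were dissected mechanically, and the labels do not state how long passed between dissection and lysis.

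The stretch upstream of a start site is where the inducing factors are known to bind, and 4 of the members' promoters are shown. The RefSeq promoter table (GRCm38.p6) matched 8 of the 10 members, and the 250 bases before the start were searched on both strands for a CArG box (the site of serum response factor), the cyclic AMP response element TGACGTCA, the AP-1 site TGANTCA, the RBPJ core TGGGAA and the response element's half-site TGACG, which also lies within the full element. Fos and Fosb are shown because their ratios were the largest of the members, Dusp1 for its full cyclic AMP response element and Jun for its RBPJ core. Capitals mark the matches, and each sequence runs 5′ to 3′ on the gene's own strand, at chr12:85473640-85473889 (plus) for Fos, chr7:19310046-19310295 (minus) for Fosb, chr17:26508473-26508722 (minus) for Dusp1 and chr4:95052223-95052472 (minus) for Jun.
Fos: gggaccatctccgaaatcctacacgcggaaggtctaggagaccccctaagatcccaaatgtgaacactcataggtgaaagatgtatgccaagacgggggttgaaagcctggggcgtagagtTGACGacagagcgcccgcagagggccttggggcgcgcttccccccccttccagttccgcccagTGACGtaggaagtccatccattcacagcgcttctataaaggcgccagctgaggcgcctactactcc
Fosb: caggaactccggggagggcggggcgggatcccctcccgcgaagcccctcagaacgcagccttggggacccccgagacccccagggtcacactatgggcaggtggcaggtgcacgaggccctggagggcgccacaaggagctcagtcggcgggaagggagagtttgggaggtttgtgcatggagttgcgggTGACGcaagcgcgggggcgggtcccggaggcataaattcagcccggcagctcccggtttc
Dusp1: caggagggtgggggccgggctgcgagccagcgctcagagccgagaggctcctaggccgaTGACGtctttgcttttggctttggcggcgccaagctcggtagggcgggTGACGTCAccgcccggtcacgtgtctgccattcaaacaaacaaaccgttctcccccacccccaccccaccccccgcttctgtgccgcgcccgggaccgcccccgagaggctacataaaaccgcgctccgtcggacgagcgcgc
Jun: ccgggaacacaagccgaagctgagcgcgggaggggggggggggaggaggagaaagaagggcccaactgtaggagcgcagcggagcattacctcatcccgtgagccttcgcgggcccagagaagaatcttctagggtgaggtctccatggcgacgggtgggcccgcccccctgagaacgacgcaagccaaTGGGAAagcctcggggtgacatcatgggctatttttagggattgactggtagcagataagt

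The half-site was present in 7 of the 8 members with a promoter sequence, in all but Jun, and in 17.7% of the 32817 distinct promoters of the table. It was added to the search after the other motifs had been read, and the comparison is a description. In Fos it lay 129 to 125 and 66 to 62 bases before the start, in Fosb 60 to 56 bases, in Junb 106 to 102 bases, and in Nr4a1 there were 4 matches on the minus strand. Dusp1 alone held the full element, 143 to 136 bases before the start, against 1.55% of all promoters. Egr2, which has 5 listed windows that partly overlap, was the member with a CArG box, against 1.47% of all promoters. A member counted for a motif if any of its windows held a match, while the shares over all promoters count single windows. Jun was the member with the RBPJ core, 61 to 56 bases before the start, against 21.6%. The AP-1 site, searched only as TGANTCA, was in 0 of the 8, against 6.75%. Near forms of the motifs were not counted, such as the TGACATCA in the Jun sequence shown. A match is a run of letters in this window and not a site shown to be bound. Bases further upstream were not searched, and Egr1 and Ier2 had no promoter sequence, so absence of a match here does not mean absence of the site.

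The labels were first checked against the targeted gene. The Rbpj probe with the brightest signal gave log2 Rbpj-cKO over control of -1.13 on replicate 1 and -0.63 on replicate 2, lower in Rbpj-cKO on both arrays, and the other probe gave -0.48 and -0.37. Tbx18 gave 0.17 and -0.24, and all 10 mesenchyme and smooth muscle markers and all 11 urothelium markers on the lists passed the filter. Sex-linked genes did not follow the labels in 1 channel. Ddx3y, a Y-linked RNA helicase gene, had processed signals of 1532 in the male Rbpj-cKO, 1781 in the male control, 2.12 in the female control and 123 in the female Rbpj-cKO channel. Eif2s3y, also Y-linked, gave 2452, 2477, 13.6 and 218 in the same order. The channel labelled female Rbpj-cKO thus held 8.04% and 8.89% of the male Rbpj-cKO signal of these genes, while Xist was detected in the female channels but not the male ones. Every value of replicate 2 below rests on that channel, and the values without it are those of replicate 1. Between 67.7% and 70.1% of spots were well above background in a channel, and across the 20495 genes the ratios of the 2 arrays, both turned to Rbpj-cKO over control, ran against each other (r = -0.352 across genes, which are not independent replicates).

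Of the 9 measured members, 6 were higher in Rbpj-cKO on both arrays (Fos, Fosb, Jun, Egr1, Dusp1 and Nr4a1), which is 66.7% of them beside 16.1% of all genes tested. None was lower on both arrays, beside 14.7% of all genes. The other 3 (Egr2, Atf3 and Ier2) had opposite signs, 33.3% beside 69.2%. Since earlier results were known when the members were chosen, their shares beside all genes, here and below, are descriptions and not tests. The counts also depend on the scaling for the members with small ratios. Fos, Fosb, Egr1 and Nr4a1, 4 members, were higher on both arrays in all 10 settings computed. Several of these settings could not change a member's ratio, namely the filters, the choice of probe (1 per member) and the moderation. Jun and Dusp1 turned to opposite signs when arrays were centred on the median without loess. In that setting Egr2 was lower on both arrays, at -0.14 and -0.10. With the scanner software's processed ratio and in the authors' deposited table, Egr2 and Atf3 were lower on both arrays. Limma called no member and no gene of the table at an adjusted p under 0.05 (0% of 20495 genes), and the adjusted p of each of the 9 members rounded to 1. At an unadjusted p under 0.05 stood 3 members (Fos, Fosb and Egr1) and 372 genes in all (1.82%). That count of members was 2 with median centring without loess and 1 each with no filter and with trend and robust moderation. With 2 arrays the fit had 1 residual degree of freedom, to which the moderation added 5.57, and the table's smallest adjusted p was 0.254.

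**Figure D1:**
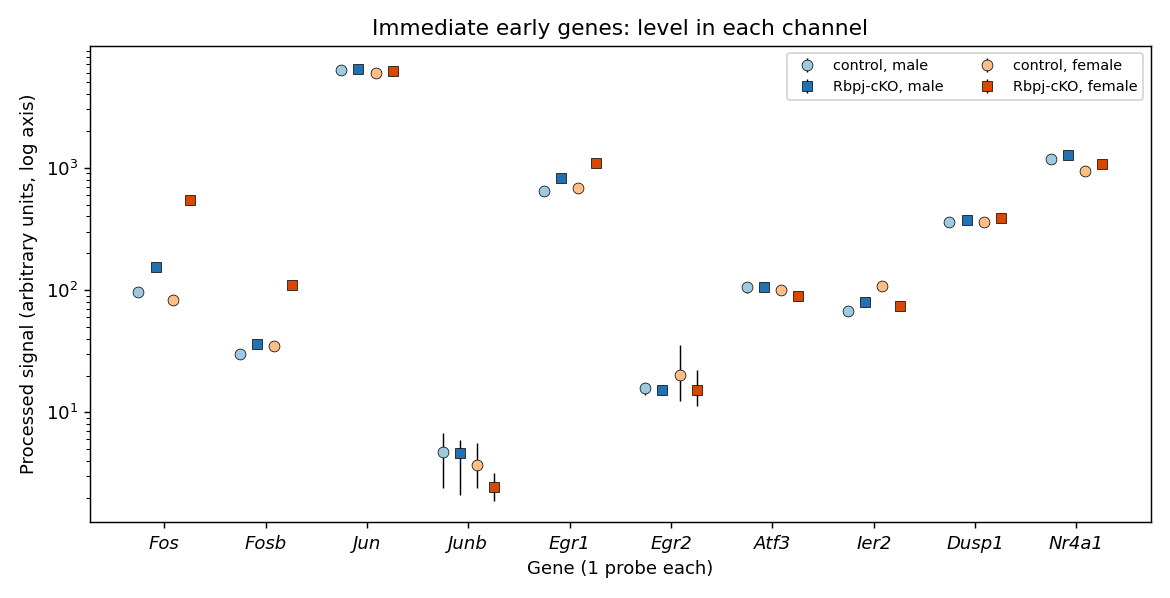
Level of each of the 10 genes in the 4 channels, as the scanner software's processed signal (arbitrary units, log axis); points are means over the spots kept of 1 probe and bars run from the lowest to the highest spot, which are repeats within 1 hybridisation. Fos stands at 549 in the female Rbpj-cKO channel and at 83.6 to 154 in the other 3, while Jun lies between 5914 and 6431 in all 4; signals of different probes cannot be set against each other.

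Among the AP-1 genes, Fos differed most. Its probe (mm9 chr12:86817900-86817959, plus strand) gave a processed signal of 97.3 ± 4.61 in the male control, 154 ± 0.81 in the male Rbpj-cKO, 83.6 ± 5.78 in the female control and 549 ± 17.7 in the female Rbpj-cKO (SD over 4 spots of 1 hybridisation). The 2 controls lay close together and the Rbpj-cKO was above its control in both pairs, with no overlap between the spots of the 2 channels: 153 to 155 against 90.6 to 101 in the males, and 525 to 568 against 78.7 to 90.8 in the females. This gave a log2 ratio of 0.57 for the male pair and 2.46 for the female pair, that is 1.49-fold and 5.51-fold, with a mean of 1.52 ± 1.33 (SD, n = 2 arrays). Fos ranked 292 of 20495 genes on replicate 1 and 4 on replicate 2 by ratio, and 4 by the mean. The authors' deposited table lists Fos at 1.56-fold and 6.72-fold.

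Fosb, which encodes a close relative of the Fos protein, had the second largest mean ratio. Its probe (mm9 chr7:19888168-19888227, minus strand) gave 29.9 ± 1.87 in the male control, 35.9 ± 2.73 in the male Rbpj-cKO, 35.2 ± 3.19 in the female control and 109 ± 6.13 in the female Rbpj-cKO. The female Rbpj-cKO stood apart from the other channels, and in both pairs the kept spots of Rbpj-cKO and control did not overlap. The male pair gave a log2 ratio of 0.18 and the female pair 1.20 (1.13-fold and 2.29-fold), with a mean of 0.69 ± 0.72 (SD, n = 2). On replicate 2 the value rests on 3 of 4 spots, with ratios of 1.15 to 1.23, since the scanner software marked the other spot, at 0.39, as an outlier. That spot's control signal of 146 lay above the kept Rbpj-cKO spots, and with it kept the ratio was 0.99.

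Of Jun and Junb, partners of the Fos proteins in AP-1, Jun had a small ratio and Junb could not be measured. Jun (mm9 chr4:94716928-94716987, minus strand) had signals of 6296 and 6431 in the male control and Rbpj-cKO and of 5914 and 6198 in the female ones, so all 4 channels lay close together and the spots of Rbpj-cKO and control overlapped on both arrays. Its log2 ratio was 0.02 and 0.07, and median centring without loess gave 0.25 and -0.18. Junb (mm9 chr8:87501881-87501940, minus strand) had 0 of its 16 spots well above background, at signals of 2.43 to 4.76, and no ratio is given for it.

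**Figure D2:**
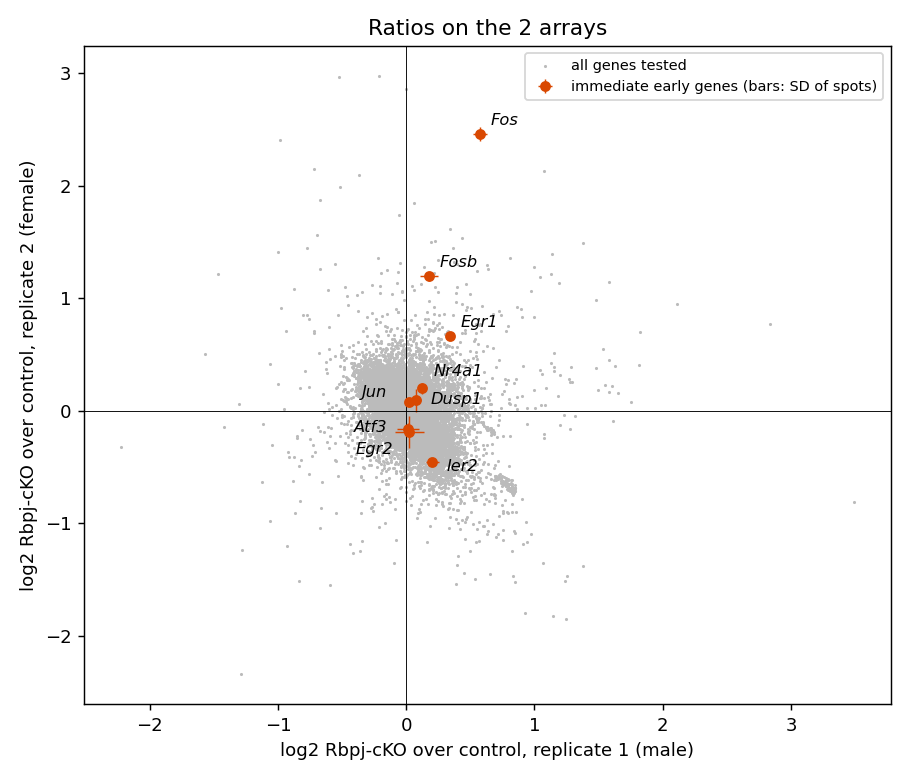
Log2 Rbpj-cKO over control on replicate 1 (male, horizontal) against replicate 2 (female, vertical); grey points are the 20495 genes tested, coloured points the 9 measured immediate early genes, and bars the SD over spots of a probe. Fos (0.57 and 2.46), Fosb (0.18 and 1.20) and Egr1 (0.34 and 0.66) lie upper right of the main cloud, and Egr2, Atf3 and Ier2 lie right of and below 0.

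Of the zinc finger factors, Egr1 had the third largest mean ratio of the members and Egr2 a ratio within its spot spread on replicate 1. Egr1, a target of serum response factor and MAP kinase signalling (probe at mm9 chr18:35024395-35024454, plus strand), had signals of 647 ± 11.4 in the male control, 822 ± 8.3 in the male Rbpj-cKO, 685 ± 10.5 in the female control and 1104 ± 12.1 in the female Rbpj-cKO. Both Rbpj-cKO channels were above both controls, and no spot of an Rbpj-cKO channel overlapped one of its control. The log2 ratio was 0.34 and 0.66 (1.27-fold and 1.59-fold), with a mean of 0.50 ± 0.23 (SD, n = 2), the smallest spread relative to its mean of the 3 leading members. With median centring without loess both arrays were nearly equal, at 0.49 and 0.48. Egr2, known for its part in Schwann cells and the hindbrain (mm9 chr10:67004798-67004857, plus strand), was dim, with signals of 15.7, 15.1, 20.2 and 15.1 in the same order. Its spots overlapped between Rbpj-cKO and control on both arrays, and the log2 ratios were 0.02 and -0.19 with spot SDs of 0.11 and 0.15.

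The remaining 4 members had mean ratios smaller in size than those of Fos, Fosb and Egr1. Nr4a1 (mm9 chr15:101105071-101105130, plus strand) gave signals of 1173 and 1281 in the male control and Rbpj-cKO and of 936 and 1077 in the female ones. Spots of Rbpj-cKO and control overlapped in both pairs, but every single spot had a ratio above 0. The log2 ratios were 0.13 and 0.20, with a mean of 0.16 ± 0.051 (SD, n = 2), and median centring without loess gave 0.28 and 0.02. Dusp1 (mm9 chr17, minus strand, where the file lists the 11 bases 26642526 to 26642536 for its probe) gave 360 and 375 in the males and 358 and 390 in the females. Its log2 ratios were 0.08 and 0.09, and on replicate 2 single spots ran from -0.05 to 0.19. Atf3 (mm9 chr1:192994547-192994606, minus strand) gave 106 in both male channels, 101 in the female control and 90.0 in the female Rbpj-cKO. The spots of the male channels overlapped and those of the female channels did not, with log2 ratios of 0.02 and -0.16. Ier2 (mm9 chr8:87186214-87186273, minus strand) ran in opposite directions, with 66.9 and 79.4 in the male control and Rbpj-cKO and 108 and 74.0 in the female ones. Its log2 ratios were 0.20 and -0.46, each beyond the spread of its spots (SD 0.053 and 0.021). Whether these 60-base probes lie in coding sequence or in a UTR was not analysed here, as no mm9 annotation was used.

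The members were not alike in the 2 pairs. On replicate 2, 3 of the 9 were at least 1.5-fold higher in Rbpj-cKO (33.3%, beside 1.11% of all genes), and on replicate 1 it was 0 (beside 1.4%), with Fos just below that limit at 1.49-fold. No member reached 1.5-fold in a common direction on both arrays, beside 0.195% of all genes. In 4 other settings Fos passed that limit on both arrays: its replicate 1 log2 ratio was 0.66 by the scanner software's processed ratio, 0.68 with median centring, 0.62 with a normexp offset of 16 and 0.64 in the authors' deposited table, against a limit of 0.58. The median log2 ratio of the 9 was 0.13 on replicate 1 and 0.09 on replicate 2, where the medians of all genes were 0.0012 and 0.0046.

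By processed signal, the gap between the pairs was larger in the Rbpj-cKO channels than in the controls for Fos and Fosb. The processed signal in the female Rbpj-cKO was 3.57 times the male one for Fos, 3.05 times for Fosb and 1.34 times for Egr1, where the median over all genes was 0.865 (quartiles 0.764 and 0.962). Between the controls the same ratio was 0.859 for Fos, 1.18 for Fosb and 1.06 for Egr1, with a median over all genes of 0.836 (quartiles 0.763 and 0.918). For Ier2 the control signal was 1.62 times higher in the female than in the male, while the Rbpj-cKO channels stood at 0.933. Each of these ratios compares different dyes on different arrays, so a dye effect of a probe cannot be told apart from a change in one channel. With 1 array for each sex and dye, the difference between the pairs could not be tested.

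The genes with ratios nearest to those of Fos included both Y-linked genes of the label check. By distance over the 2 log2 ratios the nearest genes included Gsdmc3 (1.08 and 2.13), a gasdermin gene, Eif2s3y (0.00 and 2.86), Evx1 (0.06 and 1.85), a homeobox gene, and Ddx3y (-0.21 and 2.98). Eif2s3y and Ddx3y are the Y-linked genes described above, at distances of 0.705 and 0.940. The likeness is over 2 arrays only. By ratio on replicate 2 Ddx3y ranked 1, Eif2s3y 3 and Fos 4, so few genes had ratios large enough to lie near Fos.

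The neural marker list shared the direction of most members on both arrays. Of 15 markers of neurons, glia and neural crest, 12 were higher in Rbpj-cKO on both arrays, 0 lower and 3 opposite, with medians of 0.34 and 0.77. Over all genes tested, 16.1% were higher on both arrays, 14.7% lower and 69.2% opposite. The 3 of opposite signs were Prph (-0.70 and 1.57), Nefl (-0.56 and 1.30) and Tubb3 (-0.06 and 0.88). Of the 15 markers, 4 reached 1.5-fold in a common direction on both arrays. Those 4 were Chga (2.11 and 0.95) and Chgb (2.83 and 0.77), granins of secretory granules, Dbh (1.83 and 0.70), a noradrenaline-synthesis enzyme, and Phox2a (0.64 and 1.26). Their list's summed processed signal was 42150 in the male control, 68561 in the male Rbpj-cKO, 30449 in the female control and 39963 in the female Rbpj-cKO. By the sum the shift was larger on replicate 1, as it was for Chga, Chgb and Dbh. By the median it was larger on replicate 2, as for Fos and Fosb. Of 12 macrophage and leukocyte markers, 7 were higher on both, 0 lower and 5 opposite, with medians of 0.36 and 0.01. Adgre1 (0.49 and 0.21) and Aif1 (0.35 and 0.23) had the smallest limma p of that list. Cx3cr1 (0.65 and 0.06) had its largest mean ratio. The summed signal ran from 6795 and 8939 in the males to 6112 and 6513 in the females, control first.

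Erythroid and skeletal muscle markers ran in opposite directions on the 2 arrays, where 69.2% of all genes tested had opposite signs. Of all genes, 16.1% were higher on both arrays and 14.7% lower. The 10 erythroid markers had medians of 0.57 and -0.81, with 8 of opposite signs, and their summed signal was 132262 and 210316 in the male control and Rbpj-cKO and 165686 and 85080.5 in the female ones. Klf1 (-0.40 and -0.42) and Epb42 (-0.17 and -0.27) were the 2 that were lower on both. All 11 measured skeletal muscle markers had opposite signs, with medians of 0.50 and -0.96, Myod1 at 0.09 and -0.91 and Myog at 0.22 and -0.96, and sums of 13205 and 20893 in the males and 23233 and 10798.5 in the females. Of the members, Ier2 had that order of signs with the largest size. The 6 mesothelium markers were 2 higher, 0 lower and 4 opposite, with medians of 0.67 and -0.02. Bnc1, at 0.81 and 0.07, and Wt1, at 0.54 and 0.11, were the 2 higher on both. Those of opposite signs were Upk3b (1.28 and -0.16), Lrrn4 (0.94 and -0.11), Krt19 (0.08 and -0.57) and Msln (-0.20 and 0.13). The 8 endothelium markers were 2 higher, 2 lower and 4 opposite, with Tek at -0.14 and -0.39 and Emcn at 0.11 and 0.09. In the ureter's own lists, 2 of 10 mesenchyme and smooth muscle markers were higher on both arrays, 3 lower and 5 opposite (medians -0.02 and -0.17), with Myocd, a coactivator of the smooth muscle program, at -0.67 and -1.04. Of 11 urothelium markers, 3 were higher, 4 lower and 4 opposite (medians -0.02 and -0.01), with Cldn4 at -0.53 and -0.58 and Krt5 at -0.36 and -1.25. The part of any of these cell types, of the Y-linked signal, of sex or of dye in the members' ratios was not tested.

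Further immediate early genes shared no direction, and most had opposite signs, as did 69.2% of all genes tested. Of all genes, 16.1% were higher on both arrays and 14.7% lower. Of 16 measured further transcription factors of this kind (of 20 listed, with Fosl1, Egr3, Egr4 and Nr4a3 too dim), 1 was higher on both arrays, 3 were lower and 12 had opposite signs, with median log2 ratios of -0.10 and 0.03. Klf4 (-0.17 and -0.20) and Nfil3 (-0.11 and -0.24) had the smallest limma p of that list. Of 25 measured signalling and secreted immediate early genes (of 27), 4 were higher, 7 lower and 14 opposite, with medians of -0.01 and -0.03. Gadd45g, a growth arrest and DNA damage gene, was at -0.60 and -0.22, and Ccn2, a matricellular protein gene that answers mechanical strain, at -0.25 and -0.30. None of these genes passed limma, and 0 reached 1.5-fold in a common direction on both arrays.

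The factors and kinases that switch immediate early genes on, and the genes that AP-1 is known to regulate, gave small ratios. The counts below stand beside 16.1% higher on both arrays, 14.7% lower and 69.2% opposite among all genes tested. Of 22 upstream factors and kinases, 6 were higher on both arrays, 1 lower and 15 opposite, with medians of 0.05 and -0.01; Elk1, a ternary complex factor, was at 0.41 and 0.04 and the kinase gene Rps6ka3 at 0.09 and 0.25. Of 10 measured AP-1 targets (of 15), 2 were higher, 1 lower and 7 opposite, with medians of 0.12 and -0.09. Plaur, the urokinase receptor gene, was at 0.12 and 0.11, and Lif, a cytokine gene, at -0.02 and 0.40. The lists of stress genes were as near to 0. Of 11 heat shock genes, 1 was higher, 1 lower and 9 opposite (medians -0.08 and 0.02), with Hspa4l at 0.13 and 0.12 and Hsph1 at -0.26 and 0.02. Of 12 integrated stress response genes, 1 was higher, 2 lower and 9 opposite (medians 0.06 and -0.12), with Vldlr at 0.13 and 0.44 and Trib3 at 0.00 and -0.26. Limma called 0 genes of these 4 lists, at an adjusted p that rounded to 1 for each gene named.

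**Figure D3:**
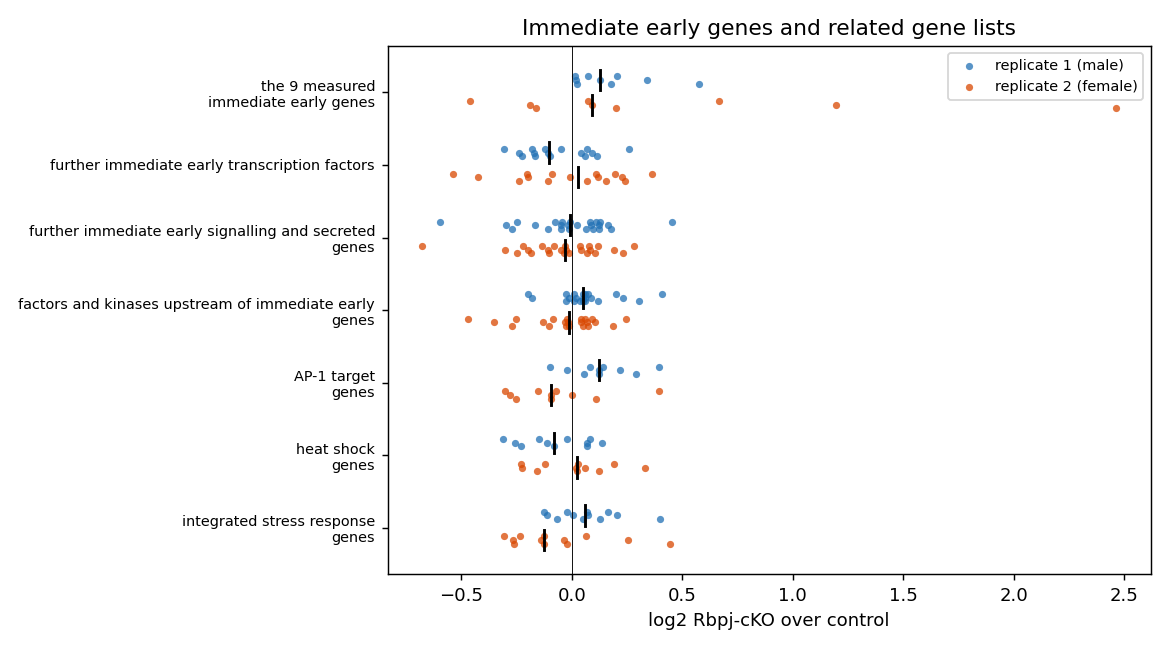
Log2 Rbpj-cKO over control of the 9 measured immediate early genes and of 6 related gene lists, with 1 point per gene and array and a black bar at each median; replicate 1 (male) is above replicate 2 (female) in each row. On replicate 2 Fos (2.46), Fosb (1.20) and Egr1 (0.66) stand right of every gene of the 6 lists, whose medians lie between -0.12 and 0.12 on either array.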

How the data were processed

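RNA of 2 pairs of Rbpj-cKO and control ureters was measured on 2 arrays of dual colour. Mean and local background intensity of each spot, and a processed intensity after background subtraction and dye normalization, were deposited on a linear scale, per the file headers. A log10 ratio, red over green of the processed signals, was deposited per spot, per the file headers. Flags for outliers and for signals well above background were deposited as other values of 0 or 1, per the file headers. Per the submitters' processing notes, spots were read with Agilent Feature Extraction 10.7.3.1. The authors also deposited a table of signed fold values, which was read as Rbpj-cKO over control because its log2 size ran with the processed ratio (r = 0.782 and 0.849 across probes); its making was not described in the labels, its medians are 1 and 1, and it served as an alternative.

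Background was corrected by normexp (offset 50), ratios were normalized by loess within each array with weight 0 for control spots, flagged outlier spots were left out, and the 4 spots of a probe were averaged (limma 3.58.1, R 4.3.3). Replicate 2 was turned to give Rbpj-cKO over control. To pass, a probe had to have 2 or more of its 4 spots well above background in 1 channel or both, on each array, and the brightest probe stood for a gene. Of 39429 probes, 28328 were named by accession through the RefSeq gene table and 3400 by symbol. Ratios were tested against 0 with limma, with Benjamini-Hochberg adjustment over 20495 genes, and the script was tested on simulated data. P-values rest on the spread between these 2 samples, moderated by limma towards the spread of all genes tested. The 2 samples also differ in sex and dye, and their number limits the precision. Levels are processed signals.

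The members, gene lists and marker lists were chosen with earlier results of these data known. Genes are named by rule: all members, Rbpj and Tbx18, the leading genes of each list (those reaching 1.5-fold in a common direction on both arrays, or else the 2 with the smallest limma p) and the 5 genes nearest to Fos, of which 1 is not reported here. Sex-linked genes served the check of labels. Alternatives changed the ratio, the normalization, the offset, the filter, the outlier spots, the choice of probe, the moderation and the arrays kept.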

Additional observations from a re-analysis of the deposited data

How the results depend on the processing

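Over 9 alternatives (the processed ratio, median centring, offset 16, no filter, a strict filter, outlier spots kept, the median over probes, trend and robust moderation, and the authors' table), all 81 mean log2 ratios of the 9 members kept their sign. Part of this was fixed in advance. With 1 probe per member, the filters and the choice of probe could not change a ratio, and the moderation alters only the p-value. Keeping outlier spots could move only Fosb, Egr2 and Atf3, which had a flagged spot. Fos ran from 1.48 to 1.69, Fosb from 0.59 to 0.96 and Egr1 from 0.49 to 0.52. Members that reached 1.5-fold in a common direction on both arrays numbered 1 (Fos) with the processed ratio, median centring, offset 16 and the authors' table, against 0. Genes past the adjusted p were 1 with the processed ratio and 5 with trend and robust moderation, against 0, and no member was among them. Members higher or lower on both arrays together were 8 with the processed ratio and the authors' table, where Egr2 and Atf3 were lower on both. With median centring they were 5, of which Egr2 was lower on both. The median of the members' mean ratios, 0.08, was 0.0938 without replicate 1 and 0.126 without replicate 2. Egr2, Atf3 and Ier2 were higher in Rbpj-cKO without replicate 2, at 0.02, 0.02 and 0.20. The dim Junb probe and, in part, that of Egr2 set the limit of what signal over background allows.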
